A study of Mus musculus with 15 samples.

Results

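Zscan4 overexpression in J1 mouse embryonic stem cells (ESCs) was examined across all genes in the 4 stem cell libraries of a series of 15: 2 control libraries and 2 libraries in which Zscan4 was overexpressed. The libraries were taken by their column names in the stem cell table, which held 51627 genes. Of these, 20888 were tested, because they reached at least 1 normalised read in at least 2 libraries. The remaining 11 libraries of the series came from 2-cell embryos, 5 of wild type and 6 with Zscan4 RNAi, of a strain that the labels do not give. Both stem cell groups were J1 cells, an established mouse ESC line, at the same labelled passage and grown without feeder cells; the controls carried the genotype label wild type and the other group the label Zscan4 OE. Which Zscan4 gene was introduced, its promoter, for how long, and whether cells were cloned or pooled, is not given in the sources used here. Nor do labels tell whether libraries of 1 group came from separate cultures, and p-values therefore reflect spread among these libraries alone, which could be technical.

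Zscan4 genes encode nuclear proteins with a SCAN domain and zinc fingers, and they are transcribed in a burst in the mouse embryo around zygotic genome activation. In ESC cultures a small fraction of cells enters the same state at any time; such 2C-like cells transcribe Zscan4 together with many genes and repeats of the early embryo. ESCs otherwise hold a pluripotent state that is governed by LIF, FGF, BMP, Nodal and Wnt signals.

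Between 21820093 and 26555027 reads per library were assigned to genes. Summed over the 9 Zscan4 genes, a cluster of near-identical copies on chromosome 7, control libraries held 152 and 212 normalised reads, against 20005 and 19449 after overexpression, so the libraries fit their labels (exact permutation p = 0.33, two-sided, the smallest that 2 against 2 can give). Reads cannot be split reliably among these copies. All 5 defining ESC markers were abundant in every library. Pou5f1, the gene of the core pluripotency factor Oct4, stood at 21746 and 21648 in the controls and 21638 and 38083 with overexpression. Its partner gene Sox2 stood at 10398 and 10365 against 8673 and 7238, and Nanog at 10562 and 10219.8 against 13822 and 15120.3; none of these 3 passed the test, nor did Esrrb.

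Across the genome 2453 genes rose (11.7% of the genes tested) and 2390 fell (11.4%) at an adjusted p under 0.05 in limma. Every count of list members below is to be read against these 2 shares, and every list median against the median of all tested genes, -0.02 on the log2 scale. The calls rest on how alike the controls were. The median absolute difference between the libraries of a group was 0.09 on the log2 scale for controls and 0.53 for overexpression, over 15528 genes with a control mean of at least 10. When either control was omitted, limma called 0 genes (3617 and 3646 at an unadjusted p under 0.05). With the spread of the overexpression libraries alone it also called 0 (4803). The same holds for every gene named below, so values of each library are given beside the tests. Of the higher and lower counts in the 52 gene lists, 63 moved by more than 1.5 times without overexpression library 1, 51 without library 2, and 32 each in voom and with group weights (a separate spread for each group). Values stand in this order: normalised reads in controls 1 and 2, then in overexpression libraries 1 and 2.

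The overexpression libraries differed from each other by gene length. In 14026 protein-coding genes with a mean of at least 10, split into 5 classes of exon length, overexpression library 2 stood 0.53 above the controls (median, log2) in the class with the shortest exons, 168 to 2393 bases. Its median was -0.59 in the class with the longest, 7480 to 123179 bases. Library 1 moved by -0.05 and 0.05 in the same classes, and control 1 minus control 2 by 0.01 and -0.01. Across genes, Spearman's rho with exon length was -0.29 for library 2 and 0.02 for library 1, as a description only. The share of genes that rose went from 17% to 8.52% from the shortest to the longest class. In the same order, the share that fell was 9.90%, 13.2%, 15.9%, 16.3% and 13.1%. For this reason many list medians, though not all, are given for each overexpression library. The part that length plays in single genes, or in lists with 1 median only, was not tested.

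**Figure D1:**
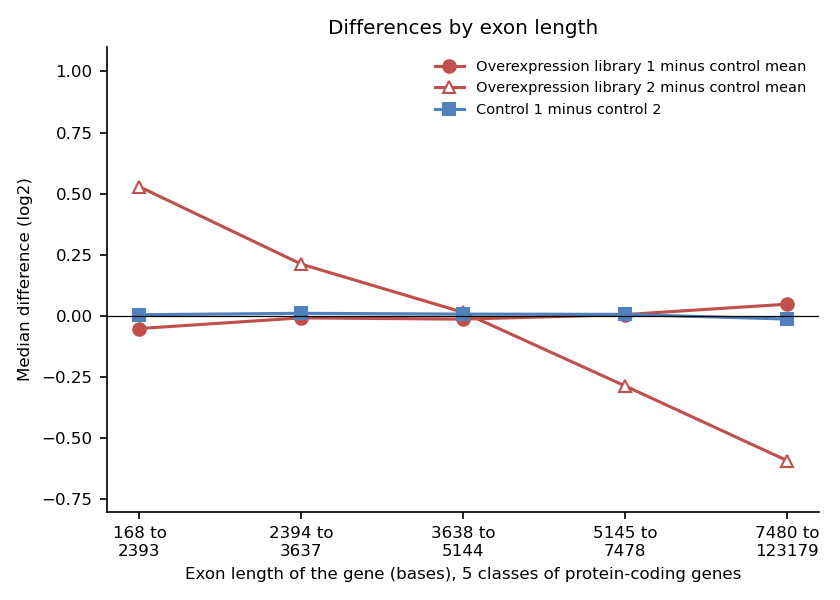
Median log2 difference (vertical axis) of protein-coding genes in 5 classes of exon length (horizontal axis, bases), for overexpression library 1 and library 2 against the control mean and for control 1 against control 2. Library 2 falls from 0.53 to -0.59 with length, while library 1 and the controls stay within 0.05 of 0.

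All 9 Zscan4 genes, the family that was overexpressed, were called higher. How many of their reads came from the introduced gene cannot be told here. Members of other 2-cell families rose as well. Dppa2 and Dppa4 encode paired chromatin factors that switch on Dux, the master activator of the 2C state. Dppa2 stood at 292 and 312 in the controls and 3360.2 and 3478 with overexpression, 11.3-fold higher, and Dppa4 at 1543 and 1577 against 2903 and 3361, 2.01-fold higher. These 2 were the only ones called of 7 tested genes in the list of Dux and its activators. Duxf3, the Dux gene, chosen after its values were seen, stood at 10.5 and 3.74 against 29.2 and 63.2 and did not pass; DESeq2, a filter of 10 and the replicate block called it higher. Smchd1, a repressor of the Dux locus, stood at 2640.1 and 2770.0 against 2344 and 848 and did not pass. Of 7 tested genes of the Usp17-like deubiquitinase and Tcstv families 6 rose, with a median log2 fold change of 3.86. Usp17le stood at 7.62 and 8.43 against 154 and 129 (17.6-fold), and Usp17lc at 3.81 and 7.49 against 135 and 97.8 (20.6-fold).

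The tripartite motif gene Trim43a, known from 2-cell and morula embryos, stood at 1.90 and 3.74 in the controls and 385 and 414 with overexpression, a 141-fold difference. Control libraries thus held almost no Trim43a while both overexpression libraries held a similar, high level. Trim43b had 1 control read and reached 55.6 and 77.5. In all, 3 of 6 Trim43 and Tdpoz genes passed, among them Tdpoz3 at 5.47 and 4.77 against no control read; the call of Tdpoz3 ended in edgeR, in voom and with group weights, and DESeq2 gave it no adjusted p. With the replicate block 5 of the 6 were called higher. PRAME family genes rose for 8 of 12 (median 3.14); group weights left 5 higher, and the median was 3.63 with a pseudocount of 0.5 and 1.96 with one of 4. Pramel4 was among the 8, with no control read and 35 reads over both overexpression libraries, at least 12.6-fold higher, computed against a floor of 3 reads over the group. Pramel1 stood at 154 and 148 against 149 and 32.2 and did not pass. For Obox, a family of embryonic homeobox genes, the 4 members that rose of 9 were all pseudogenes of Obox4. A pseudocount of 0.5, voom, group weights and either overexpression library left out each gave 2 higher. Obox6 stood at 31.4 and 30.0 against 44.7 and 54.8 and did not pass. Of the 41 other tested genes known from 2C-like cells, 27 rose and 3 fell (median 2.97; 2.86 in library 1 and 2.70 in library 2). Group weights left 13 higher, and a pseudocount of 4 gave a median of 1.85. Among the risers was Gabarapl2, an autophagy gene, at 986 and 1004 against 6439 and 9555. The 3 that fell were Btg1, P4ha2 and Ddit4l. Btg1, an antiproliferative gene, stood at 1929.6 and 2077 against 369 and 446.

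**Figure D2:**
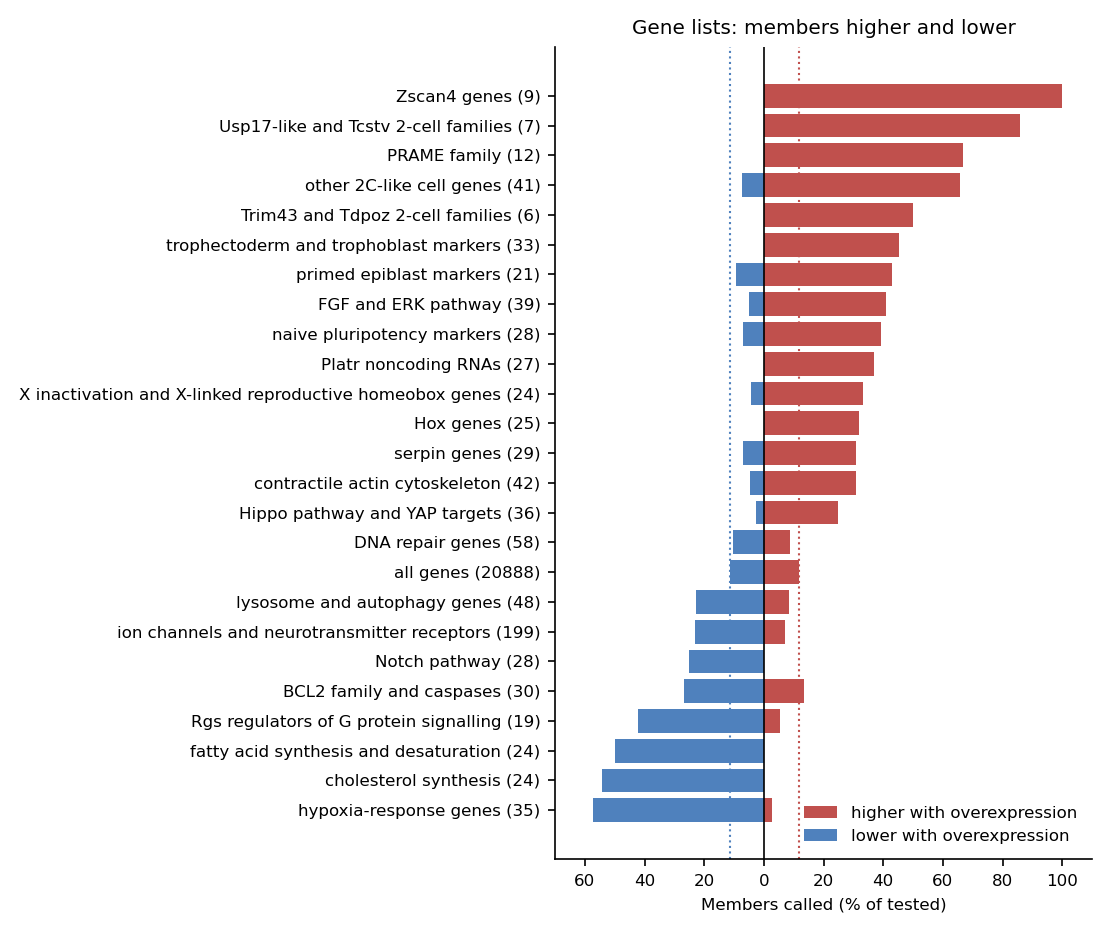
Percent of tested members (horizontal axis) that were higher (to the right) or lower (to the left) with overexpression, for 24 gene lists and all genes, with the number tested in parentheses. Dotted lines mark all genes, 11.7% higher and 11.4% lower. The list of Zscan4 genes, the overexpressed family, and other 2-cell lists lie far to the right. The cholesterol, fatty acid and hypoxia lists lie to the left.

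A tandem group of serine protease inhibitor genes also rose from near 0. Serpinb9 genes encode intracellular inhibitors of granzyme-like proteases and lie in a cluster on chromosome 13. Serpinb9e had no read in either control and reached 132 and 125 with overexpression, at least 90.8-fold higher. Serpinb9g had none and 72.0 and 51.3, and Serpinb9f none and 35.6 and 85.8. Serpinb9b stood at 5.71 and 5.62 against 459 and 498, 84.5-fold higher, and shares exon sequence with Gm36099. Both overexpression libraries stood above both controls in these 4 genes, which were named because they were called higher. Of all 29 tested serpin genes 9 rose and 2 fell; the copies are alike, and reads may be split wrongly among them.

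Counted strictly, 14 genes had no control read and at least 50 normalised reads in both overexpression libraries, and 3 showed the reverse. Il24, a cytokine gene, was among the first at 53.8 and 66.8, and Eif4e1b, an oocyte cap-binding protein gene, at 83.0 and 155. Magea5, a cancer-testis gene of the X chromosome, reached 56.5 and 75.1. These 3 were chosen after their values were seen.

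Markers of other lineages and states came next. In bulk libraries more cells of a type and more RNA per cell cannot be told apart. Trophectoderm is the outer layer of the blastocyst that forms the placenta. Of 33 tested trophectoderm and trophoblast markers 15 rose and 0 fell, with a median of 1.09 (0.88 in library 1 and 1.32 in library 2). All 15 calls held in edgeR, DESeq2 and voom, and 11 with group weights. Some members were called lower elsewhere: 2 in DESeq2, 1 in voom, and 3 and 4 without overexpression library 1 and library 2. Plac1, a placenta-specific surface protein gene, stood at 1.90 and 1.87 in the controls and 238 and 316 with overexpression, 147-fold higher (log2 fold change 6.57, SE 0.36, adjusted p = 0.0112 in limma). Gata3, a transcription factor gene of the trophectoderm, stood at 13.3 and 12.2 against 572 and 432, 39.3-fold higher. Both genes were low in the controls.

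Krt8 and Krt18 encode the partner keratins of simple epithelia. Krt18 stood at 525 and 508 in the controls against 13134 and 20991 with overexpression, and Krt8 at 683 and 638 against 15637 and 23797. The imprinted gene Peg10, which placental development requires, stood at 1346 and 1573 against 41167 and 23214. These 3 genes were higher in both overexpression libraries than in either control by more than 10-fold. The trophectoderm master factor Cdx2, chosen after its values were seen, stood at only 1.90 and 7.49 against 76.6 and 132; its call ended with group weights and with either overexpression library left out. Tfap2c, a further trophectoderm regulator, stood at 1625 and 1605 against 1449 and 1395 and did not pass, nor did Krt19 at 585 and 597 against 419 and 953. Gata3 overlaps 9230102O04Rik and Gm13256, and Krt8 overlaps Gm36026, so these values are uncertain.

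Naive pluripotency markers rose for 11 of 28 and fell for 2, Stat3 and Prdm14 (median 0.77). Tcl1, a cofactor of AKT, stood at 460.0 and 461 against 2362 and 3126, 5.96-fold higher. Fbxo15, an F-box gene active in ESCs, stood at 1968 and 2008 against 7867 and 9598, 4.39-fold higher, and Zfp42, the Rex1 gene, at 6447 and 6443 against 20878 and 17652, 2.99-fold higher. Tfcp2l1, a naive regulator, stood at 6106 and 6509 against 4136 and 2129, below the controls in both libraries, without passing. Prdm14 stood at 623 and 593 against 291 and 330.2; its call ended in voom.

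Primed epiblast markers, genes of the later, post-implantation state, also rose: 9 of 21, with 2 lower (median 0.99). Foxd3, a forkhead gene, stood at 63.8 and 63.7 against 1059 and 1463, 19.8-fold higher, and overlaps Gm23366. Fgf5, the classical marker of this state, had 1 read in each control and reached 20.1 and 17.9. Sox3 stood at 88.6 and 93.6 against 35.6 and 34.6, and N-cadherin (Cdh2) at 147 and 161 against 60.2 and 38.1; both fell, and both calls ended in voom and with group weights, and that of Sox3 also with the replicate block. So naive and primed markers were higher in the same libraries. The lists share members, Krt18 being on the trophectoderm and the primed list and Rhox6 and Rhox9 on the trophectoderm and the X-linked list.

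Primitive endoderm markers did not move together, with 6 of 30 higher and 3 lower (median 0.32). Lrp2, the megalin gene, stood at 649.6 and 639 against 5046 and 2231, whereas Hnf4a stood at 240.0 and 233 against 78.4 and 105. Mesoderm and neurectoderm markers had 5 of 26 higher and 4 lower. Pax6 stood at 204 and 191 against 50.1 and 37.0, 4.53-fold lower, and the neuronal determination gene Neurog1 at 0 and 1.87 against 115 and 150.2. The Neurog1 call ended with group weights and without overexpression library 2. Fibroblast and feeder markers had 3 of 17 higher and 5 lower, and their summed level was 38327 and 41352 in the controls and 48978 and 30734 with overexpression. Blood and endothelial markers had 3 of 17 higher and 3 lower, with sums of 6194 and 6306 against 3644 and 3438.

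Further groups of developmental genes showed rises with few or no falls. Of 25 tested Hox genes 8 rose and 0 fell, at low levels: Hoxd9 stood at 1.90 and 3.74 against 16.4 and 25.0, with its call lost in DESeq2, in voom, with group weights and without either overexpression library. The sum over the list was 234 and 214 in the controls and 586 and 635 with overexpression. Of the 8 calls 4 held in voom and 1 with group weights. Of 24 tested genes of X inactivation and the X-linked Rhox homeobox cluster 8 rose and 1 fell (median 1.5); a filter of 10 left 4 higher and group weights 5. Rhox6 stood at 78.1 and 80.5 against 707 and 1351, 13.0-fold higher, and Rhox9 at 81.9 and 69.3 against 538 and 1031, 10.4-fold higher, while Rhox5 stood at 407 and 447 against 447 and 737 and did not pass. Of 27 Platr genes, noncoding RNAs associated with pluripotency, 10 rose and 0 fell; group weights left 6 higher. Platr10 stood at 714 and 778 against 2737 and 3389.

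Germ cell and oocyte genes split, with 8 of 49 higher and 7 lower (median -0.25); voom left 4 lower. Piwil4, which encodes a piRNA-binding protein that acts in fetal germ cells, stood at 322 and 301 in the controls and 9.12 and 9.54 with overexpression, 33.4-fold lower (log2 fold change -4.92, SE 0.29, adjusted p = 0.0112 in limma). Its overlap with Gm10706 makes the value uncertain. Sycp3, a gene of the meiotic chromosome axis that overlaps Chpt1, stood at 688 and 685 against 139 and 156. In the other direction Asz1, a gene of the piRNA pathway, stood at 7.62 and 8.43 against 95.7 and 94.2, and Rpl10l, a ribosomal protein gene of the testis, at 189 and 179 against 2305 and 2954. Piwil2, a close relative of Piwil4, stood at 1261 and 1321 against 1271 and 711 and did not pass.

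**Figure D3:**
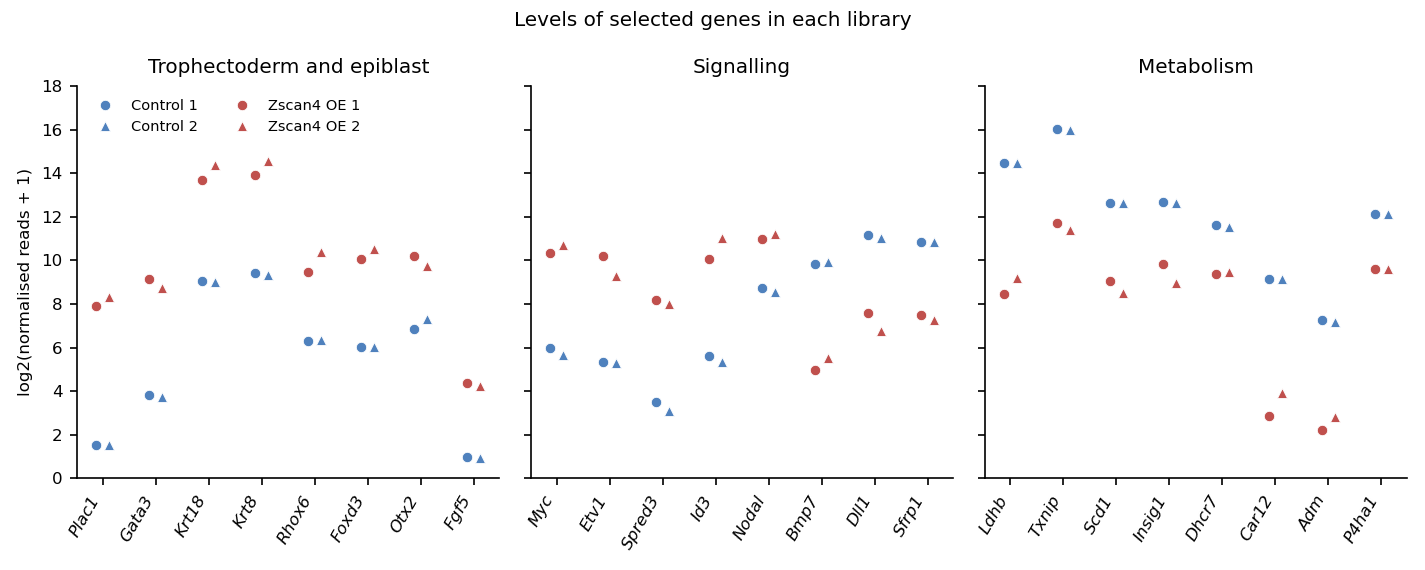
Level of 24 named genes, log2(normalised reads + 1) on the vertical axis, in each of the 2 control and 2 overexpression (OE) libraries, grouped by function. Symbols of 1 colour are libraries of 1 group. All 24 genes were picked from those called in the main test, so separate colours follow largely from that choice. Bmp7, Dll1, Sfrp1 and the metabolic genes are lower with overexpression.

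Signalling pathways were examined from ligand to target. FGF signals through the RAS and ERK kinases and pushes ESCs towards differentiation. Of 39 tested genes of this pathway 16 rose and 2 fell (median 0.67; 0.86 in library 1 and 0.97 in library 2), and all 18 calls held in edgeR and DESeq2, while voom left 15 higher and 0 lower. The ligand gene Fgf4 stood at 5356 and 5584 against 3979 and 3612 and the receptor gene Fgfr1 at 3974 and 3977 against 4663 and 4167; neither passed. A pair of other receptor genes fell. Fgfr4 stood at 280.0 and 218 against 36.5 and 50.1, and Fgfr3, which overlaps G630022F23Rik, at 228 and 172 against 59.3 and 26.2. Both receptor calls ended in voom, and that of Fgfr3 also ended after quantile normalisation, with group weights and without overexpression library 2.

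Transcription factor genes downstream of ERK stood higher. Myc stood at 62.9 and 49.6 in the controls and 1289 and 1664 with overexpression, 26.3-fold higher (log2 fold change 4.69, SE 0.26, adjusted p = 0.0112 in limma). Etv1 stood at 39.0 and 38.4 against 1171 and 619.9, 23.1-fold higher, and Etv5 at 2738 and 2688 against 12200.1 and 8220.0. Feedback inhibitors of the pathway rose as well: Spred3 stood at 10.5 and 7.49 against 288 and 259, 30.4-fold higher, Spry4 at 336 and 353 against 1604 and 1444, and the ERK phosphatase gene Dusp6 at 242 and 182 against 1113 and 715. Fgfbp1, whose product releases FGFs from the matrix, stood at 8.57 and 8.43 against 217 and 297, 30.2-fold higher. Etv5, Spry4 and Dusp6 were chosen after their values were seen, and Spred3 overlaps Ggn.

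LIF acts through STAT3 to hold the naive state. Of 23 tested genes of the LIF pathway 3 rose and 2 fell, and both that fell lie on chromosome 11, whose genes were lower as a whole. Stat3 stood at 6138 and 5946 against 1943 and 1552, 3.46-fold lower, and overlaps Stat5a. Socs3, the feedback inhibitor, stood at 7141 and 7392 against 2124 and 3106. Gbx2, a STAT3 target, stood at 96.2 and 105 against 466 and 556, 5.08-fold higher, and overlaps D130058E05Rik.

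Nodal and TGF-beta genes had 8 of 36 higher and 6 lower; voom left 3 lower. The ligand genes were among the risers: Nodal stood at 429 and 369 against 2008 and 2402, 5.53-fold higher, Tgfb2 at 8.57 and 8.43 against 99.4 and 65.6, and the Nodal antagonist gene Lefty1 at 871 and 871 against 1986 and 3099.7. The signal transducer gene Smad3 stood at 629.6 and 570.1 against 163 and 100.1, 4.56-fold lower. Among BMP genes, 6 of 31 higher and 4 lower, the ligand gene Bmp7 stood at 923 and 974 in the controls and 30.1 and 45.3 with overexpression, 25.2-fold lower (log2 fold change -4.64, SE 0.29, adjusted p = 0.0116 in limma). Id3, an inhibitor of differentiation that BMP induces, stood at 48.6 and 39.3 against 1079 and 2058, 35.7-fold higher, and the homeobox gene Msx2 at 38.1 and 47.7 against 333 and 514. Bmp7 was thus lower in the same libraries in which Id3 and Msx2 were higher. The BMP list as a whole had a median of 0.20, and voom and group weights each left 2 lower. Lefty1 was chosen after its values were seen, and Tgfb2 overlaps Gm29491.

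Wnt genes went both ways, with 11 of 50 higher and 8 lower (median -0.28; 0.03 in library 1 and -0.43 in library 2); group weights left 5 and 5, and voom 7 and 4. Secreted inhibitors and modulators stood at lower levels: Sfrp1 at 1816 and 1821 against 179.6 and 155, 10.9-fold lower, and Dkk3 at 929 and 994 against 113 and 100.1, 9.02-fold lower. Rnf43, a membrane ligase that removes Wnt receptors, stood at 237 and 286 against 23.7 and 14.3, on chromosome 11. A different inhibitor gene, Dkk1, had 1 control read and reached 33.7 and 56.0. The ligand gene Wnt6 stood at 28.6 and 16.9 against 213 and 298. Wnt4 stood at 0.952 and 15.9 against 156 and 223. The Wnt6 call ended without library 2, and the Wnt4 call after quantile normalisation, without a filter, with a pseudocount of 0.5, with group weights and without either library. Ctnnb1, the beta-catenin gene, stood at 21057 and 20872 against 21361 and 10672; library 2 alone was lower, and the gene did not pass.

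Of 28 tested Notch genes 7 fell and 0 rose (median -0.80; -0.81 in each overexpression library). Dll1, a ligand gene, stood at 2302 and 2116 against 192 and 107, 14.7-fold lower. The receptor gene Notch3 stood at 3175 and 3364 against 1128 and 744, and Mfng, a glycosyltransferase that modifies Notch, at 330.5 and 329 against 84.8 and 117. Of the 7 calls 5 held in voom; quantile normalisation left 4 lower. DESeq2 called 1 member higher, and 2 and 4 were higher without overexpression library 1 and library 2. Rbpj, the DNA-binding partner of Notch, stood at 5018 and 4881 against 13590.3 and 6679.8, above the controls, without passing. Dll1 overlaps A930024N18Rik and Notch3 overlaps Gm17276. Hedgehog genes had 3 of 16 higher and 4 lower: the transducer gene Smo stood at 1117 and 1015 against 243 and 223, 4.57-fold lower. Gli1, a target and effector gene that overlaps Arhgap9, stood at 1345 and 1342 against 2379 and 2718 and rose.

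Hippo signalling restrains the coactivators YAP and TAZ. Of 36 tested genes of this pathway and its targets 9 rose and 1 fell (median 0.24; 0.66 in library 1 and -0.08 in library 2). The target gene Ctgf, which encodes a matricellular protein, stood at 268 and 282 in the controls and 3605 and 2135 with overexpression. Its relative Cyr61 stood at 395 and 369 against 2876 and 3294, 8.08-fold higher. The TEAD cofactor gene Vgll3 stood at 15.2 and 21.5 against 789 and 482, 34.5-fold higher, and the kinase gene Lats2, also a YAP target, at 47.6 and 38.4 against 656 and 280.2. Sav1, a scaffold of the kinase cascade, fell from 994 and 1080.3 to 480.4 and 367. Ctgf overlaps Gm15270, Lats2 overlaps Gm49361 and Sav1 overlaps Atl1; Cyr61 was chosen after its values were seen.

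Regulators of G protein signalling, which switch off signals from G protein-coupled receptors, fell for 8 of 19 and rose for 1 (median -1.49; -1.40 in library 1 and -1.36 in library 2). Rgs3 stood at 656 and 529 against 130.4 and 109.7, 4.94-fold lower. Of the 8 calls 4 held in voom. Of 199 tested ion channel and neurotransmitter receptor genes 46 fell and 14 rose (median -0.74; -0.50 in library 1 and -0.76 in library 2). Voom called 11 of the 199 lower, beside 1231 of all 20888 genes, and group weights left 28 lower and 6 higher. The glutamate receptor gene Grm4 stood at 182 and 162 in the controls and 6.38 and 4.77 with overexpression. Grin2c, another one, stood at 216 and 183 against 4.56 and 8.35; it lies on chromosome 11 and overlaps Gm25837. Trpm3, a cation channel gene, went the other way, from 14.3 and 21.5 to 1047 and 1627, 74.7-fold higher, and overlaps C330002G04Rik and Gm27151. Of 32 regulators of mTOR and AMPK 5 fell (15.6%) and 1 rose; 3 of the falls lay outside chromosome 11, and DESeq2 and the replicate block each gave 8 lower. Rragd, a nutrient-sensing GTPase gene, stood at 1162 and 1246 against 134 and 93.0, 10.6-fold lower.

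Cholesterol, fatty acid and hypoxia genes were mostly called lower where called. Cells make cholesterol from acetyl-CoA in a chain of enzymes whose genes are driven together by SREBP transcription factors, and hypoxia-inducible factors drive glycolysis, angiogenesis and matrix genes when oxygen is short. Of 24 tested cholesterol genes 13 fell and 0 rose (54.2% lower; median -0.88; -1.10 in library 1 and -1.04 in library 2). All 13 calls held in edgeR and DESeq2, 11 in voom and 12 with group weights; these 4 fits also called 1 member higher. Insig1, a sterol sensor that holds SREBP back, stood at 6561 and 6339 in the controls and 917 and 492 with overexpression, 9.15-fold lower (log2 fold change -3.26, SE 0.34, adjusted p = 0.0142 in limma). Dhcr7, a sterol reductase gene at the end of the chain, stood at 3139 and 2989 against 672 and 699, 4.47-fold lower. In these genes both overexpression libraries were below both controls.

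Fdps, a farnesyl diphosphate synthase gene of the same list, stood at 3617 and 3627 against 2499 and 4846, on either side of the controls, and did not pass. The SREBP genes themselves fell, Srebf1 from 5329 and 5215 to 1435 and 1928 and Srebf2 from 9500.5 and 9397 to 4163 and 3933; Srebf1 lies on chromosome 11 and overlaps Rai1, and both SREBP genes were chosen after their values were seen. Fatty acid synthesis and desaturation genes fell for 12 of 24 and rose for 0 (median -1.03; -0.84 in library 1 and -1.31 in library 2), and 10 of the 12 remained without chromosome 11. Scd1, a desaturase that makes oleate, stood at 6355 and 6364 against 539 and 358, 14.2-fold lower. Its relative Scd2 stood at 25268 and 24869.5 against 7731 and 4140.4, 4.22-fold lower, and Acacb, an acetyl-CoA carboxylase gene, at 951 and 921 against 183 and 162. Fasn, the fatty acid synthase gene, stood at 9475 and 10232 against 7683 and 6435 and did not pass.

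Hypoxia-response genes fell for 20 of 35 and rose for 1, Egln2, whose call ended after quantile normalisation (57.1% lower; median -1.37; -1.44 in library 1 and -1.27 in library 2). Of the 20 calls 20 held in edgeR and 19 each in DESeq2, voom and with group weights. Car12, a carbonic anhydrase gene, stood at 565 and 573 against 6.38 and 14.3. Adm, the gene of the vasodilator adrenomedullin, stood at 151 and 141 against 3.65 and 5.96, 30.5-fold lower. Vegfa, the main angiogenic factor gene, stood at 3046 and 3052 against 588 and 492, 5.64-fold lower. All 3 were far below the controls in both libraries.

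P4ha1, a collagen prolyl hydroxylase gene, stood at 4471 and 4507 against 781 and 781 (log2 fold change -2.52, SE 0.15, adjusted p = 0.0112 in limma). Ddit4, an mTORC1 inhibitor gene, stood at 10708 and 10495 against 722 and 809, 13.8-fold lower; Bnip3, a mitophagy gene, at 4849.8 and 4830.5 against 1067 and 1404; and Egln3, an oxygen-sensing hydroxylase gene, at 1112 and 1057 against 261 and 287. All 4 were lower in both overexpression libraries. Of the glycolysis genes, Pgk1 stood at 46481 and 46206 in the controls against 13614 and 15601 with overexpression, and Aldoa at 116677 and 115300.0 against 28877 and 48444. Ldha, the lactate dehydrogenase gene of hypoxia, stood at 51633 and 50929.7 against 29548 and 36430.4, and Slc2a3, a glucose transporter gene, at 41505 and 41161 against 28093 and 23048; both were below the controls in each library and neither passed. Hif1a itself stood at 2679 and 2574 against 3011 and 1034 and did not pass. Vegfa, Bnip3, Egln3, Car9 and Hif1a were chosen after their values were seen; Aldoa overlaps Fam57b, Bnip3 overlaps Gm45507 and Car9 overlaps Gm12454.

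Promoters of the fallen hypoxia genes are shown because these genes moved together and many hold a short motif known from the hypoxia response. The motif searched was ACGTG on either strand, the core of the hypoxia response element, in a window from 250 bases before to 50 after the RefSeq gene start (GRCm38.p6), with 1 window per gene. It was present in 10 of the 17 fallen hypoxia genes that had a sequence (58.8%), in 16 of the 30 tested ones (53.3%), in 23.9% of 13284 tested genes with a sequence and in 19.6% of all 27025 genes in the promoter table. Over all lists and genes with a sequence, the motif was present in 24.7% of 1618 genes that fell and 24.1% of 1611 that rose. The hypoxia list consists of genes known from the hypoxia response, so a high share in it was likely beforehand. The motif was chosen after the counts were seen. A palindromic CACGTG is matched on both strands, and a match is a description of letters only. The sterol motif TCACNCCAC, searched in the same way, was present in 1 of the 10 fallen cholesterol genes with a sequence and in 1.17% of tested genes. The 250 bases before the start are printed for 5 of the fallen hypoxia genes. All 5 are among the 10 that hold a match, so they do not stand for the 17. Bases run 5′ to 3′ on the strand of the gene, with each match in capitals (CACGT where it lies on the opposite strand).
Ddit4 chr10:59951771-59952020 (minus strand): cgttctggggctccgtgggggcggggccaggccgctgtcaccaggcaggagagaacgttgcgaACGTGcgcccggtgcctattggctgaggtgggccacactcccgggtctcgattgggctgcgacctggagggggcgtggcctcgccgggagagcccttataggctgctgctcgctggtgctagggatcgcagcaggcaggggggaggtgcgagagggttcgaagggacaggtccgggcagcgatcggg
P4ha1 chr10:59323046-59323295 (plus strand): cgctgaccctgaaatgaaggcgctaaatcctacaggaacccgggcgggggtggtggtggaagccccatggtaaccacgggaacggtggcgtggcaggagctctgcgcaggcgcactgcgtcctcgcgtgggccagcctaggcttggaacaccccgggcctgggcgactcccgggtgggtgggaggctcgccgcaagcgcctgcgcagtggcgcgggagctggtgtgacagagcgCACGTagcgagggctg
Bnip3 chr7:138909507-138909756 (minus strand): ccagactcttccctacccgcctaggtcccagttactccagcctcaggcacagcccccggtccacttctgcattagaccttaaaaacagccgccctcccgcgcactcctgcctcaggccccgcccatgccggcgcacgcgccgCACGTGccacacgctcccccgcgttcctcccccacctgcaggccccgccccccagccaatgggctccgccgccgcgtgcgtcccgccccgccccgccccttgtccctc
Egln3 chr12:54203875-54204124 (minus strand): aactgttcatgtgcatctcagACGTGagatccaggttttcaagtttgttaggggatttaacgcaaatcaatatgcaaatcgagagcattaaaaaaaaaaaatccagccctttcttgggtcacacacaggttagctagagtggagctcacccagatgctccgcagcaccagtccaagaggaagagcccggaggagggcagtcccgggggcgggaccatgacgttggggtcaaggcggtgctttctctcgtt
Car9 chr4:43506776-43507025 (plus strand): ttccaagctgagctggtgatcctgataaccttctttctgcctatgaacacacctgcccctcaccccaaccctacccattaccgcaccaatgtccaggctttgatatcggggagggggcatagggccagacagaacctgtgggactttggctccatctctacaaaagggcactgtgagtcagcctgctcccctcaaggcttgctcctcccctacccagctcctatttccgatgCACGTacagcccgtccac
First matches lie -187 bases from the start in Ddit4 (P4ha1 -16, Bnip3 -108, Egln3 -229, Car9 -18), negative positions being upstream; Bnip3 holds 2 overlapping matches in CACGTG. Car9, a carbonic anhydrase gene, stood at a low 32.4 and 30.0 against 9.12 and 5.96, and its call ended in DESeq2, in voom and with group weights.

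**Figure D4:**
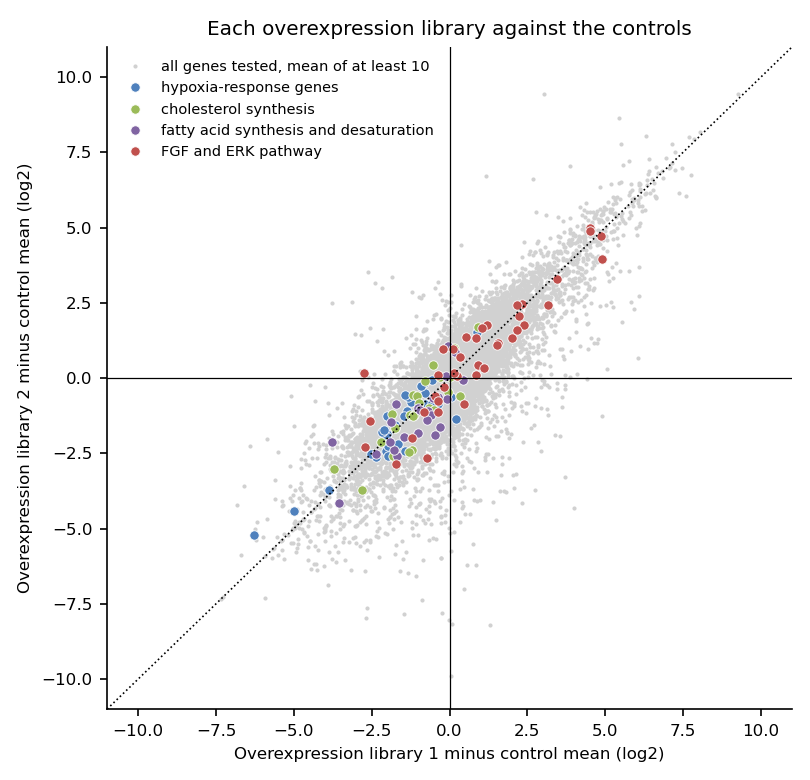
Log2 difference of overexpression library 1 (horizontal axis) and library 2 (vertical axis) from the mean of the controls, for all tested genes with a mean of at least 10 (grey) and members of 4 lists (coloured); the dotted line marks equal values. Most hypoxia, cholesterol and fatty acid genes lie to the lower left, with list medians of -1.37, -0.88 and -1.03, and FGF and ERK genes spread to the upper right, with a median of 0.67.

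Other metabolic genes stood far apart between the groups. Ldhb, a lactate dehydrogenase subunit gene, stood at 22740.3 and 22608 in the controls and 354 and 579 with overexpression, 48.6-fold lower (log2 fold change -5.64, SE 0.28, adjusted p = 0.0112 in limma). Txnip, which limits glucose uptake and binds thioredoxin, stood at 65834 and 64824 against 3384 and 2692, 21.5-fold lower, and overlaps Gm15441. Both were abundant genes of the controls, and neither overexpression library came near a control. The phosphoglucose isomerase gene Gpi1 stood at 44059.5 and 43323 against 11248 and 16683 and overlaps Gm26762. Among redox genes, 3 of 45 higher and 5 lower, the metallothionein gene Mt1 stood at 5809 and 5839.6 against 991 and 1937 and Mgst1, a microsomal glutathione transferase gene, at 78.1 and 72.1 against 2.73 and 4.77; the Mgst1 call ended in voom. Their median was 0.06, with -0.24 in library 1 and 0.40 in library 2.

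Genes of 1-carbon metabolism, which supplies methyl groups and nucleotides, had 4 of 28 higher and 2 lower. Mat2a, which makes S-adenosylmethionine and overlaps Particl, stood at 2857 and 2773 against 7797 and 6369. Lysosome and autophagy genes fell for 11 of 48 and rose for 4; 8 of the 11 remained without chromosome 11. Lamp2, a lysosomal membrane protein gene, stood at 3819 and 3854 against 1003 and 651, 4.64-fold lower, and Wipi1, on chromosome 11, at 1292 and 1214 against 135 and 138, while the autophagy initiation gene Atg13 stood at 731 and 732 against 2849 and 3394, 4.27-fold higher. Amino acid transporter genes fell for 7 of 35 and rose for 2, Slc7a3 and Slc38a6, the last only in part of the alternatives. Slc6a6, the taurine transporter gene, which overlaps Gm44981, stood at 5836 and 5808 against 2047 and 1283.

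Genes of cell shape and adhesion moved in both directions. Of 42 contractile actin genes 13 rose and 2 fell (median 0.60; 0.46 in library 1 and 0.62 in library 2), and all 13 rises held in edgeR, DESeq2, voom and with group weights. Myl9, a myosin light chain gene, stood at 274 and 309.9 against 971 and 1823, and Cnn2, a calponin gene, at 1389 and 1427 against 4280.0 and 6540.3. Among the few that fell was Actc1, a cardiac actin gene, whose call ended in voom. Of 21 tested annexin and S100 genes, which encode calcium-binding proteins, 7 rose and 3 fell. Their median was 0.60, with 0.31 in library 1 and 0.87 in library 2. With group weights 4 of the 7 rises held, and voom and group weights each left 1 lower. Anxa1 stood at 41.9 and 38.4 against 1383 and 1626, 37.5-fold higher, Anxa3 at 119 and 94.5 against 1222 and 1280.4, and Anxa8 at 305 and 314 against 26.4 and 25.0, 12-fold lower. Anxa3 overlaps Gm42603.

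Junction genes went both ways, with 4 of 34 tight junction genes higher and 4 lower. Cldn6, a claudin gene of pluripotent epithelium, stood at 912 and 982 against 3256 and 5163, 4.44-fold higher, and Cgnl1, a junction plaque gene, at 199 and 197 against 1901 and 1273, while Ocln, the occludin gene, stood at 450.5 and 503 against 93.9 and 48.9, 6.68-fold lower. Matrix genes had 11 of 69 higher and 11 lower; group weights left 7 higher and voom 6 lower. The gelatinase gene Mmp2 stood at 2267 and 2226 against 267 and 281, 8.19-fold lower, and Thbs1, the thrombospondin gene, at 92.4 and 100.2 against 1687 and 556. In the cadherin and epithelial-mesenchymal list, 5 of 27 higher and 6 lower, Snai1 stood at 43.8 and 36.5 against 297 and 409 and its relative Snai2 at 47.6 and 44.0 against 9.12 and 9.54; Snai1 was higher and Snai2 lower in both overexpression libraries, and the Snai2 call ended in voom and with group weights. Thbs1 overlaps Gm29233.

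Chromatin genes were examined because the title of the series concerns a co-repressor complex. Of 48 tested genes of the LSD1, HDAC, KAP1 and H3K9 methylation list 8 rose and 5 fell. The list median was 0.17, with 0.30 in library 1 and -0.13 in library 2. Trim28, which encodes the co-repressor KAP1, stood at 29822 and 29325 in the controls and 69149 and 93846 with overexpression, 2.76-fold higher (log2 fold change 1.45, SE 0.23, adjusted p = 0.0248 in limma). Hdac1 stood at 3737 and 3759.5 against 7307 and 7436, 1.97-fold higher. Other histone deacetylase genes went the other way: Hdac5, Hdac7 and Hdac11 were called lower. Kdm1a, the LSD1 gene, stood at 8483 and 8544 against 6409.5 and 6948 and did not pass. Zfp57, a zinc finger gene that brings KAP1 to imprinted loci, stood at 1742 and 1599 against 7369 and 10396, 5.32-fold higher. These are RNA levels and say nothing of protein. Hdac1 and Kdm1a were chosen after their values were seen.

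Polycomb genes had 6 of 36 higher and 2 lower; DESeq2 called 11 higher. Jarid2, a PRC2 cofactor gene, stood at 4716 and 4784 against 17435 and 11353, with its call lost after quantile normalisation, and Ezh1, on chromosome 11, at 3158 and 3069 against 1088 and 1019. DNA repair genes were near the background, with 5 of 58 higher and 6 lower. The base excision glycosylase genes Neil2 and Neil3 stood apart within the list, Neil2 at 1537 and 1532 against 181 and 118, 10.3-fold lower, and Neil3 at 1068 and 982 against 183 and 125, 6.65-fold lower. Clustered histone genes had 4 of 62 higher and 1 lower, with medians of 0.35 in library 1 and 0.93 in library 2.

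Among BCL2 family and caspase genes 8 of 30 fell and 4 rose. The proapoptotic BH3-only gene Hrk stood at 213 and 190.0 in the controls and 6.38 and 14.3 with overexpression. Bbc3, which encodes PUMA, stood at 1987 and 2114 against 447 and 604. The antiapoptotic gene Bcl2l1 stood at 544 and 553 against 1916 and 2761, 4.26-fold higher. Diablo, Bcl2l14 and Birc3 were also called higher, and Pmaip1 and Birc2 lower. Proapoptotic and antiapoptotic genes were thus each called in both directions. Genes of interferon, antigen presentation and innate sensing had 6 of 44 higher and 9 lower; voom left 4 lower and group weights 5. The class I gene H2-K1 stood at 1291 and 1265 against 255 and 336, 4.32-fold lower, and the peptide transporter gene Tap1 at 612 and 595 against 120.3 and 179. The RNA sensor gene Ddx58 (RIG-I) stood at 164 and 168 against 843 and 724, 4.73-fold higher, and Tlr4, a lipopolysaccharide receptor gene, had 1 control read and stood at 110.3 and 367. Tap1 overlaps Psmb9.

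Some of the largest gains in level lay in mitochondrial RNA. Of 18 tested mitochondrially encoded genes 8 rose and 2 fell, and the libraries differed, with medians of -0.36 in library 1 and 1.07 in library 2. The cytochrome b gene mt-Cytb stood at 30774 and 30607 against 95111 and 146389, 3.93-fold higher, and mt-Nd1, a complex I subunit gene that overlaps mt-Ti, at 22867 and 22753 against 77536 and 130539. In contrast mt-Co1 stood at 402017 and 394326 against 233051 and 263312, and mt-Rnr2, the large ribosomal RNA gene, at 4595 and 4607 against 3022 and 2469; mt-Co1 did not pass, and the mt-Rnr2 call ended in edgeR, with the replicate block and without a filter. The mitochondrial share of all normalised reads was 2.37% and 2.36% in the controls and 2.39% and 3.15% with overexpression. Eif2s2, a translation initiation factor gene of the nucleus, stood at 8159 and 8059 against 29198 and 29790.0, a gain of 3.64-fold with little difference between libraries.

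Chromosomes 11 and X were compared with the remaining autosomes. The 1537 tested genes of chromosome 11 had a median log2 fold change of -0.49, with -0.52 in library 1 and -0.45 in library 2; 23% of them fell and 6.12% rose. The other 18 autosomes had medians of -0.12 to 0.11, 8.27% to 13.6% lower and 9.22% to 14.7% higher. In windows of 10 Mb with at least 20 tested genes, all 13 along chromosome 11 had a median below 0, from -0.81 to -0.16. Its share of all normalised reads was 11.8% and 11.9% in the controls and 8.81% and 9.19% with overexpression. Genes of the X chromosome had a median of 0.29 over 773 genes (0.44 in library 1 and 0.29 in library 2), with 20.6% higher and 5.82% lower. Of its 14 windows with at least 20 tested genes, 11 had a median above 0, and medians ran from -0.19 to 1.41. X windows with fewer genes were left out. The Y chromosome had 24 tested genes with a median of 0.74 (0.72 in library 1 and 0.35 in library 2), of which 3 rose and 0 fell, and the 18 mitochondrial genes had a median of 0.53. Krt19, P4ha2 and Fasn, named above, lie on chromosome 11 too; the number of copies of the chromosome in each culture was not tested. Without its 1537 genes 2359 genes rose and 2037 fell, and lists kept 13 of 13 falls for cholesterol, 19 of 20 for hypoxia and 7 of 7 for Notch genes, with 14 of 15 rises for trophectoderm and 15 of 16 for FGF and ERK genes. Other lists lost more: rises of Hox genes went from 8 to 5, and falls from 5 to 3 for mTOR and AMPK regulators and for the LSD1, HDAC and KAP1 list, from 3 to 0 for keratins, and from 2 to 0 for integrins and LIF genes.

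**Figure D5:**
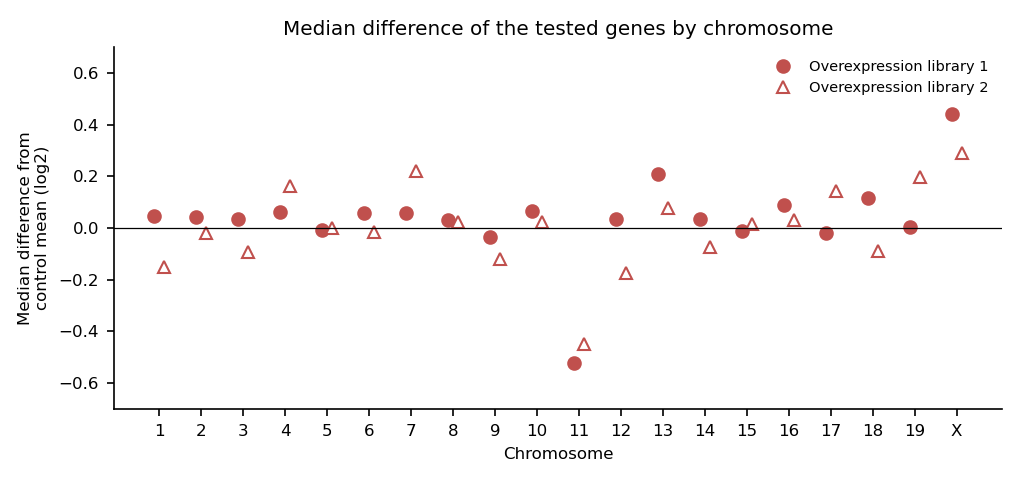
Median log2 difference from the control mean (vertical axis) of the tested genes of each chromosome (horizontal axis), for overexpression library 1 (filled circles) and library 2 (open triangles). Chromosome 11 lies lowest in both libraries, at -0.52 and -0.45, and the X chromosome is at 0.44 and 0.29.

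The deposited embryo data offered another readout of the same genes. Of 13067 genes tested in both tables, 13.1% were lower and 6.05% higher with Zscan4 RNAi in 2-cell embryos. Of the 1638 genes that rose with overexpression in ESCs, 326 (19.9%) were lower with RNAi and 83 (5.07%) higher. Of the 1384 that fell, 92 (6.65%) were lower and 110 (7.95%) higher. Seen from the embryos, the 326 genes were 19% of all those lower with RNAi, and the 83 were 10.5% of all those higher. Of all 13067 genes, 1638 rose. Of the genes lower with RNAi, 75.6% were not called in ESCs. The share was also 75.6% among genes higher with RNAi, and 10045 of all 13067 genes were not called.

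The DNA motif TGCACAC, described for the zinc fingers of Zscan4, was looked up on both strands in the same promoter windows. It was present in 58 of 1611 (3.6%) genes that rose, 73 of 1618 that fell (4.51%), 3.69% of 13284 tested and 4.26% of all genes in the table. Among the 27 risen 2-cell genes with a sequence only Abcb5, a transporter gene, held it (3.70%). Among the 17 fallen hypoxia genes 3 did (17.6%), and among all 30 tested hypoxia genes 4 (13.3%). Of 10 fallen cholesterol genes 2 held it (20%), and of 9 fallen fatty acid genes 0. These sets are small. Abcb5 had no control read and stood at 33.7 and 8.35 with overexpression. Its 250 bases before the start are printed as the only case among the risen 2-cell genes. This gene was chosen after the matches were seen, and the match is in capitals.
Abcb5 chr12:118966422-118966671 (minus strand): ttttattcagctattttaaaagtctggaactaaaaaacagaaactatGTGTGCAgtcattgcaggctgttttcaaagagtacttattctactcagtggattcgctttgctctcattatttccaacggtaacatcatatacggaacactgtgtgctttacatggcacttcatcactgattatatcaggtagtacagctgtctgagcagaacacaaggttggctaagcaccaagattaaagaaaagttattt
That match begins -203 bases from the start, on the opposite strand. Enhancers and repeats lie outside these windows and were not analysed here.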

How the data were processed

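There were 2 control and 2 Zscan4 overexpression RNA-seq libraries of J1 cells; the labels call the molecule genomic DNA while the titles say RNA-Seq. Per the submitters' processing notes, Trimmomatic, HISAT2 and featureCounts were used with mm10; neither versions, strand setting nor annotation is given in those notes. The deposited signal values are normalised reads, that is, the authors' read counts divided by 1 factor per library: every value was a whole multiple of its library's step (within 0.01 reads), so whole reads were recovered. The design had a count test for raw counts and limma for a normalised unit; limma was therefore used on log2(value + 1), for genes at 1 or more in at least 2 libraries.

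Calls used limma 3.58.1 in R 4.3.3 with a mean-variance trend and Benjamini-Hochberg adjusted p under 0.05, two-sided. The script was first tested on simulated data. All simulated libraries had the same spread and no length effect, unlike the real ones, so that test cannot show how reliable these calls are. Fold changes without a log scale are ratios of group means of normalised reads; log2 fold changes use log2(value + 1), which understates the change of low genes. On whole reads, edgeR 4.0.16 called 2319 genes higher and 2191 lower; DESeq2 1.42.0 and voom were also run, as were other pseudocounts, filters and scalings, and group weights (a separate spread for each group). Embryo values were tested with limma in the same way.

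Named genes were taken by rule: in each of 52 lists up to 4 members higher and 4 lower by fold change and up to 2 of the highest that did not pass, the 12 largest gains and losses in fold with a mean of at least 100, the 10 largest in level, and the 5 with the largest gap between overexpression libraries. Genes outside the rule are named as such. Members and lists were chosen with earlier results of these data known. Exon overlaps come from the GENCODE annotation; where exons overlap, reads of the partners cannot be told apart. Results for a few members of these lists are not reported here.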

Additional observations from a re-analysis of the deposited data

How the results depend on the processing

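The counts of 2453 genes higher and 2390 lower stayed within 1.5 times under other pseudocounts, filters and scalings, edgeR and DESeq2. Voom with quality weights called 1231 lower, and weights for each group 1538 higher. With the spread of the overexpression libraries alone, added after seeing the data, limma called 0 in each direction (4803 at an unadjusted p under 0.05). Leaving out 1 library gave 0 to 5100 higher and 0 to 5755 lower: 0 without control 1 or control 2, 5100 and 5755 without overexpression library 1, and 4375 and 4629 without library 2. These alternatives use fewer samples, and the lone library is assumed to vary like the other group.

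With the replicate block 2943 genes were higher and 3081 lower; same-numbered libraries did not deviate together (correlation -0.04 over 16285 genes), so the numbers do not pair the samples. Genes not called in the main test took opposite signs with 1 overexpression library left out (log2 fold change without library 1, then without library 2): Krt19 0.69 and -0.49, Tkt 0.34 and -0.24, Itga6 -1.04 and 0.22, Prdx1 0.33 and -0.21, Tjp1 -0.62 and 1.11, and Fdps 0.42 and -0.54. The cause was not tested. With 2 libraries a group, genes at a few reads are limited by depth.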
